A study of Mus musculus with 4 samples.

Results

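Amino acid transporters are described here in mouse T-helper 17 (Th17) cells, the CD4 T cells that secrete interleukin 17. The members were all protein-coding genes whose GENCODE symbol starts with Slc1a, Slc3a, Slc6a, Slc7a, Slc36a, Slc38a or Slc43a, which gave 64 genes of 21764 protein-coding genes and 50600 genes in all. The rule uses symbols and no measured level, although it was set with earlier results of these data known. Bulk RNA was sequenced in 4 libraries of 1 group, which the labels give as primary cells of strain C57BL/6NJ and number as biological replicates 1 to 4. Each library has a biosample of its own, all share 1 donor label, and age and sex are not given. The headers of the deposited files mark every library as 72 hr and sorted. No treatment, genotype or second cell type is named, so the comparisons are between genes within a library and between libraries. Whether these are separate animals or cultures is not said, so a p-value here reflects spread among these 4 libraries alone, and that spread may be technical.

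Amino acids cross membranes on carriers of the solute carrier (SLC) families. Several SLC7 light chains reach the plasma membrane only as a disulphide-linked pair with a heavy chain of the SLC3 family, and exchange 1 amino acid for another. SLC1A5 and SLC38 carriers bring in glutamine and other neutral amino acids, and system L (SLC7A5 with SLC3A2) exchanges them for leucine and other large neutral ones. T cells raise this uptake when they are activated, and leucine and arginine in the cell are read by the kinase complex mTORC1, partly at the lysosome through SLC38A9. In mice, Slc7a5 and Slc1a5 are both known to be needed for full effector responses of T cells.

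Total counts ran from 9382661 in replicate 3 to 34542693 in replicate 1, a 3.68-fold range. Among the listed markers, all 6 Th17 markers and all 6 T-cell markers had a level of at least 1 TPM (counts per length of exon, scaled to library size) in every library. The markers of other cell types summed to 0.196 to 0.569 TPM for neutrophils, 5.35 to 11 TPM for macrophages and dendritic cells, 8.11 to 10.2 TPM for stromal, endothelial and epithelial cells, 8.43 to 16 TPM for B cells, 10.4 to 18.3 TPM for natural killer cells and 11.3 to 15.4 TPM for CD8 T cells. Of the 34 markers in these lists, 8 were at 0 counts in every library and 6 had at least 1 TPM in each. Those 6 were B-cell Ighm at 13 ± 3.33, CD8 Cd8b1 at 13.4 ± 1.96, natural killer Nkg7 and Klrd1 at 8.82 ± 3 and 3.6 ± 0.989, endothelial Pecam1 at 8.49 ± 0.793 and macrophage Cd68 at 6.08 ± 1.66 TPM (SD, n = 4). The part of such cells in any level below was not tested, and in bulk RNA fewer cells of a type and less RNA per cell cannot be told apart.

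Transporter levels ran from 0 counts in every library, for 22 genes, to a mean of 365 TPM for Slc1a5. TPM here are counts divided by the exonic length in the files and scaled to the same sum in each library. Levels can then be set side by side between genes only as far as that length holds. With the longest coding transcript Slc7a5 had 266 in place of 347 TPM and Slc7a6os 91.7 in place of 37.3 TPM. The level of 1 TPM was reached in all 4 libraries by 23 of the 64 members and by 47.6% of all protein-coding genes. The median member stood at 0.0335 ± 0.0268 TPM, against 0.804 ± 0.0844 TPM for all protein-coding genes (SD, n = 4). A mean of at least 100 TPM was reached by 9 of the 64 members and by 9.41% of protein-coding genes. With the length of the longest coding transcript, Slc38a2 and Slc38a1 fell just under that level, at 99.6 and 98.7 TPM. Slc43a3, which is not known as an amino acid carrier, is among these 9. Among genes with at least 1 TPM in every library, the median was 37.3 TPM for transporters and 32 TPM for protein-coding genes. Summed over all members the level was 1880, 1949, 1954 and 1813 TPM in replicates 1 to 4. Slc1a5, Slc7a5 and Slc3a2 together held 47.8% to 49.7% of that sum, and the 10 highest members 89.6% to 91%.

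**Figure D1:**
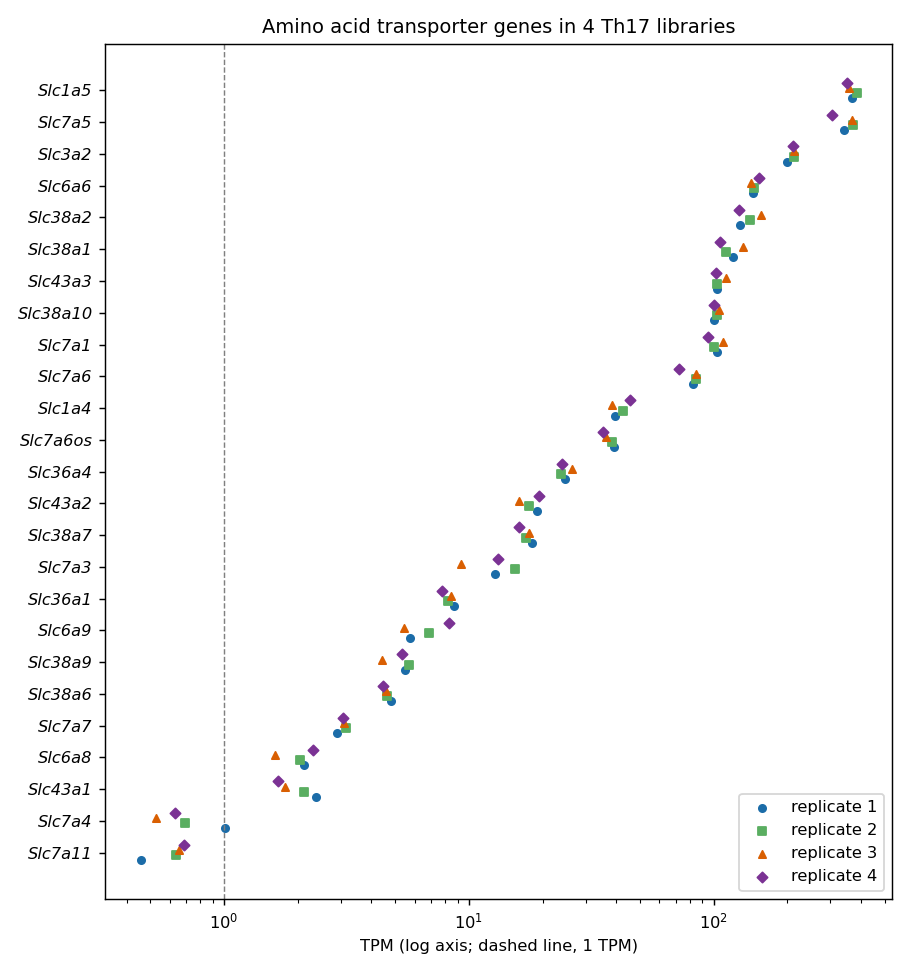
TPM of the 25 transporter genes with the highest means (log axis, 1 row per gene, 1 symbol per library; the dashed line is 1 TPM). From Slc1a5 at 365 TPM to Slc43a1 at 1.99 TPM every library lies above the line, and Slc7a4 crosses it only in replicate 1.

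The neutral amino acid exchanger Slc1a5 (ASCT2, a sodium-dependent carrier of glutamine, serine and alanine) was the highest member. It had 368, 384, 357 and 350 TPM in replicates 1 to 4 (mean 365 ± 15 TPM, SD, n = 4; rank 403 among protein-coding genes). The gene (ENSMUSG00000001918) lies on chromosome 7 from 16781340 to 16798274 (mm10, plus strand). Its paralogue Slc1a4 (ASCT1, which favours serine, alanine, threonine and cysteine) had 39.4, 42.6, 38.4 and 45.6 TPM. Within each library Slc1a5 exceeded Slc1a4 by 3.19, 3.14, 3.18 and 2.91 on the log2(TPM + 1) scale (mean 3.11 ± 0.131, SD, n = 4). No library of Slc1a4 came near the range of Slc1a5. The other SLC1 genes encode glutamate and aspartate carriers best known from neurons and glia, and all 5 were under 1 TPM in every library. Slc1a1 held 22 counts and Slc1a2 held 10 over the 4 libraries, while Slc1a3, Slc1a6 and Slc1a7 held 0.

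The heterodimeric system L was represented by 1 light chain. Slc7a5 (LAT1, which carries leucine, isoleucine, phenylalanine, tryptophan and methionine) had 342, 371, 368 and 306 TPM, lowest in replicate 4 (mean 347 ± 30.4 TPM, SD, n = 4; chromosome 8 from 121881150 to 121907694, mm10, minus strand). Slc1a5 and Slc7a5 overlapped: Slc1a5 was the higher in replicates 1, 2 and 4, and Slc7a5 in replicate 3. With the lengths of the longest coding transcripts their means were 400 and 266 TPM. The other system L light chain, Slc7a8 (LAT2), held 12 counts in all and 0.0283 to 0.171 TPM. Per base of exon, Slc7a5 took 3362 times the counts of Slc7a8, with a 95% exact binomial interval of 1925 to 6508 that covers counting error only. The large neutral carriers that need no heavy chain were lower: Slc43a2 (LAT4) had 19, 17.6, 16.1 and 19.4 TPM, and Slc43a1 (LAT3) 1.99 ± 0.331 TPM (SD, n = 4). Slc7a5 exceeded Slc43a1 by 6.87 ± 0.161 on the log2(TPM + 1) scale in 4 of 4 libraries, and 167-fold per base.

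The heavy chain Slc3a2 (4F2hc, also the activation antigen CD98) had 199, 212, 213 and 212 TPM (mean 209 ± 6.56 TPM, SD, n = 4; chromosome 19 from 8706882 to 8723369, mm10, minus strand). Replicate 1 was the low one and the other libraries nearly coincided. Slc3a1 (rBAT), the heavy chain of kidney and gut, held 13 counts in all. Slc3a2 was 1081-fold above Slc3a1 per base, with an exact binomial interval of 632 to 2030. Slc3a2 stood below Slc7a5 in every library, by -0.78, -0.80, -0.79 and -0.53 on the log2(TPM + 1) scale. The 6 light chains known to pair with it (Slc7a5, Slc7a6, Slc7a7, Slc7a8, Slc7a10 and Slc7a11) summed to 428, 460, 457 and 382 TPM. The ratio of Slc3a2 to that sum was 0.466, 0.462 and 0.466 in replicates 1 to 3 and 0.555 in replicate 4 (mean 0.487 ± 0.0452, SD, n = 4). With the length of the longest coding transcript of each gene in place of all its exons, the mean ratio was 0.561.

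Among the other partners of the heavy chains, Slc7a6 (y+LAT2, which exchanges arginine for glutamine) had 82.5, 84.5, 84.4 and 72.3 TPM, with replicate 4 again the low library. Its relative Slc7a7 (y+LAT1) had 2.9, 3.15, 3.09 and 3.05 TPM. Slc7a6 exceeded Slc7a7 by 4.34 ± 0.109 on the log2(TPM + 1) scale (SD, n = 4), and 26.5-fold per base. Slc7a11 (xCT, which takes up cystine in exchange for glutamate and so feeds glutathione synthesis) was low, at 0.459, 0.635, 0.655 and 0.688 TPM from 241 counts. It stood under 1 TPM in every library. Slc7a5 exceeded Slc7a11 by 7.75 ± 0.168 on the log2(TPM + 1) scale, with the same sign in every library. The added 1 shrinks such a difference where a gene is low. With 0.1 added in its place the difference was 8.94, and per base Slc7a5 took 578 times the counts of Slc7a11. The files give Slc7a11 an exonic length of 13922 bases against 9223 for its longest coding transcript, and with the shorter lengths it was still outside the 23 expressed members. Slc7a9, Slc7a10, Slc7a12 and Slc7a15 held 0 counts, and Slc7a13 held 2.

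Cationic amino acid carriers that work without a heavy chain were led by Slc7a1 (CAT1, the widely expressed arginine and lysine carrier), at 103, 100, 109 and 95 TPM. Slc7a2 (CAT2, the carrier that activated macrophages induce for arginine) held 5 counts over the 4 libraries. The ratio per base was 5392, with an exact binomial interval of 2310 to 16608. Slc7a3 (CAT3, usually described in brain and embryo) was clearly present, at 12.7, 15.5, 9.27 and 13.1 TPM from 1465 counts, lowest in replicate 3. It therefore stood above Slc7a2 in each library. Slc7a4, a related gene without a settled substrate, reached 1.01 TPM in replicate 1 and 0.529 to 0.694 TPM in the others. It was the one member with at least 1 TPM in only some libraries. Slc7a14 held 0 counts.

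Of the glutamine and alanine carriers of systems A and N, Slc38a1 and Slc38a2 were expressed and the rest were not. Slc38a2 (SNAT2, a carrier that amino acid starvation is known to induce) had 129, 141, 156 and 128 TPM. Slc38a1 (SNAT1) had 120, 113, 131 and 106 TPM. Replicate 3 was the high library and replicate 4 the low one for both genes. Slc38a1 was below Slc38a2 in every library on the log2(TPM + 1) scale, by -0.23 ± 0.0959 (SD, n = 4). That order turned without division by length (0.63 log2 units), and with the length of the longest coding transcript the difference was -0.01, so the order of this pair was not settled. Slc1a5 exceeded Slc38a2 by 1.4 ± 0.14 log2 units. Slc38a3 held 3 counts, and Slc38a4, Slc38a5 and Slc38a8 held 0.

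Carriers of the lysosome and the less studied SLC38 and SLC36 genes were present in 6 of 9 cases. Slc38a10, whose physiological substrate is not settled, was among the steadiest members at 101, 103, 105 and 101 TPM. Slc36a4 (PAT4, a proline and tryptophan carrier) had 24.6, 23.8, 26.4 and 24.1 TPM. Slc38a7, the lysosomal exporter of glutamine and asparagine, had 18.2, 17.1, 17.6 and 16 TPM. Slc36a1 (PAT1, a proton-coupled exporter on lysosomes) stood at 8.3 ± 0.388 TPM and Slc38a9, the lysosomal arginine sensor, at 5.22 ± 0.557 TPM (SD, n = 4). Slc36a1 exceeded Slc38a9 by 0.58 ± 0.158 log2 units in 4 of 4 libraries, but by 0.01 without division by length. Slc38a6 had 4.62 ± 0.147 TPM. Slc36a3 held 19 counts, Slc36a2 held 1 and Slc38a11 held 0.

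The SLC6 family, most of whose 21 members carry neurotransmitters or serve gut and kidney epithelia, had 3 expressed genes. Slc6a6 (TauT, the taurine and beta-alanine carrier) was the fourth highest transporter, at 145, 146, 142 and 153 TPM. Slc6a8, the creatine carrier, had 2.02 ± 0.29 TPM (SD, n = 4). Slc6a6 exceeded Slc6a8 by 5.61 ± 0.11 on the log2(TPM + 1) scale (SD, n = 4), and 69.9-fold per base. Slc6a9 (GlyT1), a glycine carrier, had 5.77, 6.85, 5.46 and 8.3 TPM, highest in replicate 4. The other 18 were under 1 TPM in every library, and 10 of them held 0 counts, among them the noradrenaline carrier Slc6a2, the proline carrier Slc6a7, the betaine carrier Slc6a12 and the epithelial carriers Slc6a14, Slc6a18 and Slc6a20a. The dopamine and serotonin carriers Slc6a3 and Slc6a4 held 1 count each.

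The symbols also bring in a pair of genes that are not known as amino acid carriers. Slc43a3, described as a purine nucleobase carrier, had 103, 103, 113 and 102 TPM, highest in replicate 3. Slc7a6os, named for its place beside Slc7a6 on the opposite strand, had 39.1, 38.3, 36.5 and 35.3 TPM. The exons of these neighbours, as the files give them, do not share a strand, and no member shared more than 5% of its exonic bases with another gene on its own strand. Both are among the 23 expressed members.

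In all, 22 members held 0 counts in every library. With no read seen, a level of up to 3 reads per library remains possible, or 0.0291 to 0.605 TPM across these genes and libraries (counting error only). Another 19 members held some counts without reaching 1 TPM in every library. Genes at 0 counts were common outside these families too. Among the 21764 protein-coding genes ranked by mean TPM, Slc6a5 with 1 count stood at 14519 and Slc7a15 with 0 counts at 14671. All genes ranked after Slc7a15 also held 0 counts, so the 22 are not read as a trait of transporters.

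Each of the 12 gene pairs, chosen with earlier results of these data known, had the same sign in all libraries. An exact permutation of signs (two-sided) gave p = 0.125 for every pair, before and after Benjamini-Hochberg adjustment over the 12 pairs. A set of 4 libraries cannot give a smaller p, so no pair could pass 0.05. Each mean difference exceeded its SD between libraries, which ran from 0.0516 (Slc7a1 minus Slc7a2) to 0.171 (Slc3a2 minus Slc3a1). Slc7a2, Slc7a8 and Slc3a1 held 5, 12 and 13 counts in all. Their log2(TPM + 1) lies near 0, so the SD of such a pair hardly shows their own variation. The smallest difference relative to its SD was that of Slc38a1 and Slc38a2.

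**Figure D2:**
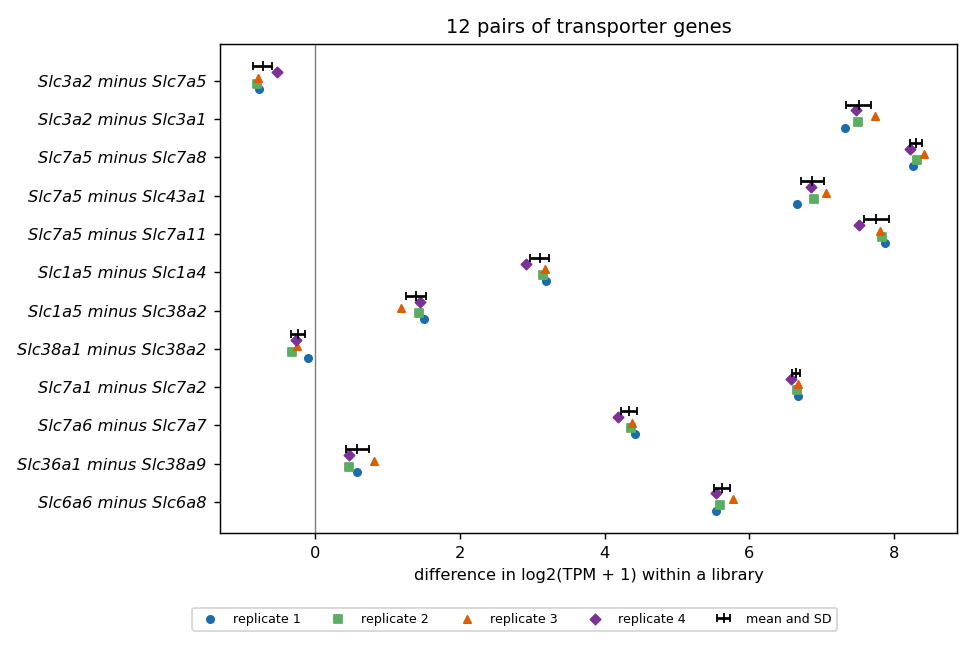
Difference in log2(TPM + 1) within a library for 12 pairs of transporter genes (1 symbol per library; the black bar is the mean with its SD). Slc3a2 minus Slc7a5 and Slc38a1 minus Slc38a2 lie below 0 in all 4 libraries, and the other 10 pairs lie above 0.

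Spread between the libraries was tested for all genes with edgeR, as the quasi-dispersion of a gene against the trend at its abundance. Of 12156 genes tested, 0.00823% were called at an adjusted p of 0.05. Of the 25 members tested, 0 were called, and 0 had an unadjusted p under 0.05, a level that 4.9% of all tested genes reached. DESeq2 marked 0 members as dispersion outliers, beside 0.521% of 21299 genes. The median coefficient of variation of normalised CPM (counts scaled to library size, not to gene length) was 7.28% for the 25 members and 7.91% for all tested genes, both small beside the range of levels between members. The 25 are those that passed a filter on low counts. With no filter 42 members were tested and 0 were called, beside 0.592% of the 21299 genes then tested. At such shares, 0 calls among so few members say little about them. In that run Slc6a17 (edgeR quasi-dispersion test, unadjusted p = 0.0363, adjusted p = 0.803) and Slc7a3 (unadjusted p = 0.0408, adjusted p = 0.851) were under an unadjusted p of 0.05.

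The members that ranked first in spread against the trend were Slc38a2, Slc7a3, Slc38a1, Slc7a5 and Slc6a9. Slc38a2 had 181, 199, 222 and 179 CPM and 4.12 times the trended dispersion (edgeR quasi-dispersion test, unadjusted p = 0.085, adjusted p = 0.991). Slc7a3 had 14.7, 17.9, 10.8 and 15 CPM, a 1.65-fold range, with replicate 3 lowest. Slc38a1, at 307, 290, 340 and 270 CPM, followed the order of Slc38a2 at its extremes. Slc7a5 had 385, 421, 422 and 344 CPM, a 1.23-fold range. Slc6a9 ran the other way, with 9.01, 10.8, 8.67 and 12.9 CPM. Against the trend the steadiest was Slc7a7, at 0.0516 times the trended dispersion. The coefficient of variation, which takes no account of abundance, ranks them otherwise. By that measure Slc7a4 varied most, at 28.3%. At its steady end, Slc6a6 varied by 2.41%, Slc38a10 by 2.96%, Slc38a6 by 3.29% and Slc3a2 by 3.58%.

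Libraries did not contribute equally to this small spread. Replicate 4 held the lowest CPM of 13 of the 25 members, where 32.9% of all tested genes had their lowest, and the highest CPM of 6, where 33.2% of all genes had their highest. Replicate 3 held the highest of 9 members (33.9% of all genes) and the lowest of 8 (34.2% of all genes). The median member was at -0.07 log2 units in replicate 4 against the mean of the other 3 libraries, and at 0.02, 0.03 and 0.04 in replicates 1, 2 and 3. With no filter on low counts the shift in replicate 4 was -0.0324, and that in replicate 3 was -0.0181. The median over all tested genes lay within 0.00203 of 0 in each library. Members named next were picked after their shifts were seen. Low in replicate 4 were Slc43a1 at -0.26, Slc7a5 at -0.25, Slc7a6 at -0.23, Slc38a1 at -0.21 and Slc38a2 at -0.16. Slc6a9 at 0.42, Slc6a8 at 0.19, Slc1a4 and Slc7a11 at 0.17 each and Slc43a2 at 0.13 were higher there. Replicate 3 is the shallowest library, and the part of depth in these shifts was not tested.

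**Figure D3:**
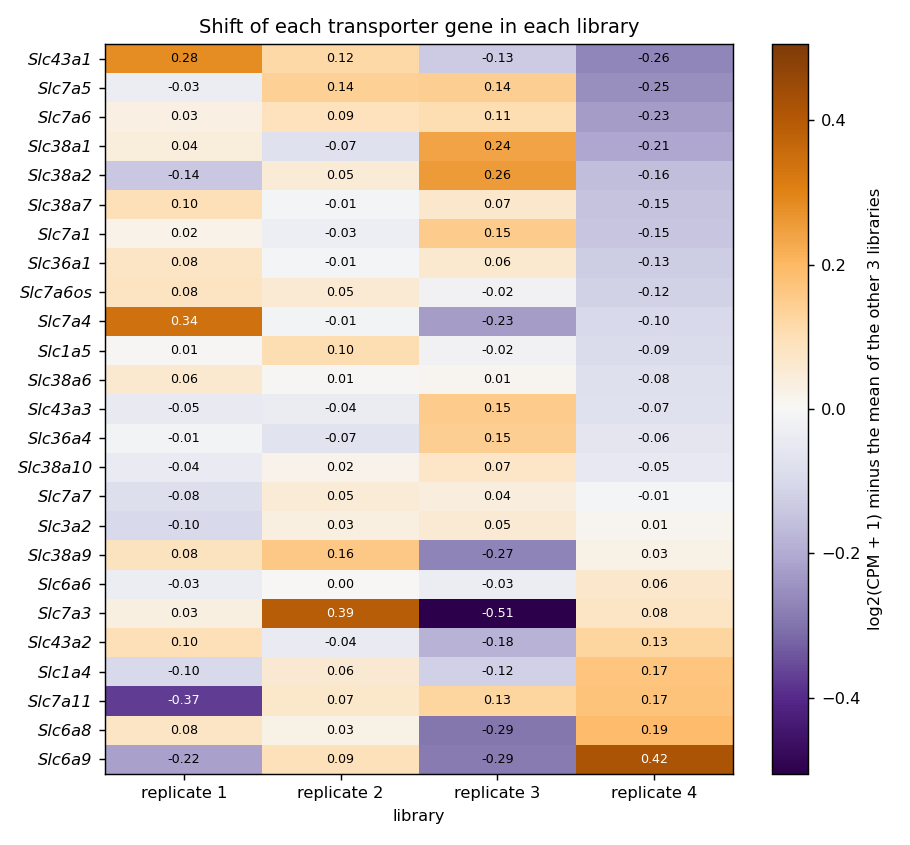
Shift of each of the 25 tested transporter genes (rows, sorted by replicate 4) in each library (columns), as log2(CPM + 1) minus the mean of the other 3 libraries; orange is higher and purple lower. The column of replicate 4 is below 0 for the top 16 rows, and Slc7a3 in replicate 3 is the lowest value at -0.51.

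Other genes that handle amino acids were read from 5 lists, chosen by function. All 5 are described by counts beside the 47.6% of protein-coding genes with at least 1 TPM in every library. Of 20 genes of the amino acid response, in which the kinase GCN2 and the factor ATF4 act when amino acids are short, 19 passed. The highest were Atf4 itself at 829 ± 32.4 TPM, the mTORC1 inhibitor gene Ddit4 at 600 ± 119, and the serine and one-carbon enzymes Shmt2, Psat1 and Phgdh at 423 ± 25.9, 335 ± 9.84 and 272 ± 15.4 TPM (SD, n = 4). The exception was Vldlr, at 0.941 TPM in replicate 3 and 2 to 5.72 TPM in the others. All 25 genes of amino acid sensing by mTORC1 passed, led by the small GTPase gene Rraga at 191 ± 12.1 TPM, the GATOR2 subunits Sec13 and Seh1l at 182 ± 6.61 and 114 ± 8.87, the Ragulator subunit Lamtor5 at 169 ± 7.5 and Rragc at 93 ± 2.61 TPM.

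Of 17 enzymes of glutamine, glutamate and branched-chain amino acids, 15 passed. Glud1, which turns glutamate into 2-oxoglutarate, had 278 ± 34.7 TPM, the transaminases Got1 and Got2 230 ± 13.6 and 176 ± 6.2, ornithine aminotransferase Oat 229 ± 14.9 and the proline synthesis gene Aldh18a1 168 ± 7.52 TPM (SD, n = 4). The arginase genes Arg1 and Arg2 held 1 count each. Among mitochondrial carriers 10 of 12 passed, with the serine carrier Sfxn1 at 220 ± 10.4 TPM, then Sfxn3 at 53.8 ± 2.42, the aspartate-glutamate carriers Slc25a12 and Slc25a13 at 45.2 ± 1.49 and 38.4 ± 3.19, and the glutamate carrier Slc25a22 at 34.5 ± 1.02 TPM. Slc25a2 had 0.347 ± 0.252 TPM and Slc25a18 held 0 counts. Of 9 amino acid carriers from other families 5 passed: the aromatic amino acid carrier Slc16a10 at 34.2 ± 4.62, the lysosomal histidine carrier Slc15a4 at 14.3 ± 1.79, Mfsd12 at 12.6 ± 0.363, Slc66a1 (Pqlc2 in the annotation) at 10.3 ± 0.539 and the cystine exporter Ctns at 8.69 ± 0.603 TPM. The vesicular carriers of neurons, Slc17a6, Slc17a7, Slc17a8 and Slc32a1, had means of 0.965, 0.619, 0.0323 and 0.00852 TPM. The median over members was 41.1 TPM for the amino acid response, 25.5 for mTORC1 sensing, 62 for the enzymes, 28.9 for mitochondrial carriers and 8.69 TPM for the other families.

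**Figure D4:**
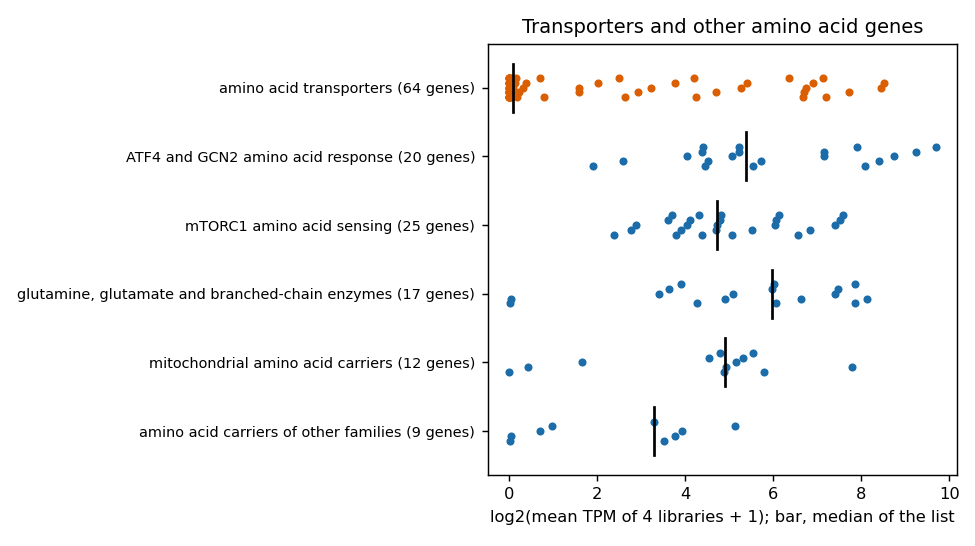
Mean level of each gene, as log2(mean TPM + 1), for the 64 transporters (orange) and 5 lists of other amino acid genes (blue); the black bar is the median of the list. The transporters crowd at 0 with a tail up to Slc1a5, whereas the 25 mTORC1 sensing genes all lie at 1 or above.

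Promoter sequence was compared for the members in the RefSeq promoter table (GRCm38.p6, the assembly that mm10 names), which gives 250 bases before and 50 after a transcription start. It held windows for 46 of the 64 members. Slc1a5, Slc7a5, Slc6a6 and Slc38a1 are among the 18 without an entry. CpG content was taken from the most upstream window of each gene, as the observed count of CpG over that expected from its C and G. The median ratio was 0.703 for the 16 members with at least 1 TPM in every library and 0.456 for the other 30. Over all protein-coding genes with a window it was 0.791 and 0.268. A ratio above 0.6 was found in 13 of the 16 and in 12 of the 30, against 77.3% and 22.1% of protein-coding genes in the same classes. So 12 unexpressed or barely expressed transporters, Slc7a8 (ratio 0.814) among them, had a CpG-rich window.

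The next windows show a CpG-rich and a CpG-poor example from 1 family, with every CpG in capitals, 5′ to 3′ on the strand of the gene. Slc38a2, at 138 TPM, has 41 CpG (chr15:96699679-96699978, minus strand), and Slc38a4, at 0 counts, has 5 (chr15:97055907-97056206, minus strand).
Slc38a2: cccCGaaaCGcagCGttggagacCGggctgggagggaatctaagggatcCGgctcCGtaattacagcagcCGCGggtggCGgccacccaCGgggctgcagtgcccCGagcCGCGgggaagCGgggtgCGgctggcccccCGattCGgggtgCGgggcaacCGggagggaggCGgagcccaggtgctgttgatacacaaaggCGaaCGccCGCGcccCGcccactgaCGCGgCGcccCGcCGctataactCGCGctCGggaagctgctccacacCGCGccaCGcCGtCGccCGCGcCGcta
Slc38a4: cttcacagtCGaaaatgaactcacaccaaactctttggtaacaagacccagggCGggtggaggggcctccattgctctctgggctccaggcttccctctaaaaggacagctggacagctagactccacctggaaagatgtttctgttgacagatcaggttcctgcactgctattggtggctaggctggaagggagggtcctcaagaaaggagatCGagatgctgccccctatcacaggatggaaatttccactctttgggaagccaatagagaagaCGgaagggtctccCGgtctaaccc

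**Figure D5:**
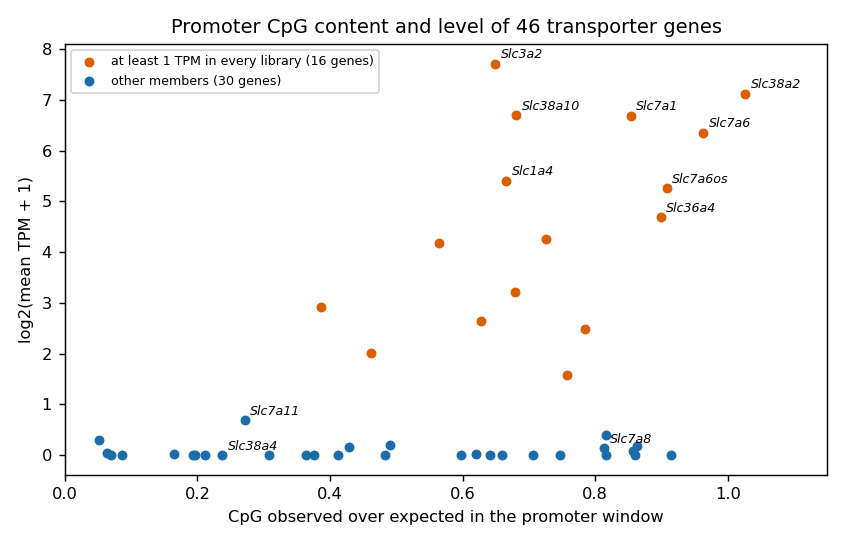
CpG observed over expected in the most upstream promoter window (x axis) and log2(mean TPM + 1) (y axis) of 46 transporter genes; orange marks the 16 with at least 1 TPM in every library. Slc38a2 is the point furthest to the right at 1.03, and the members in blue run from 0.0515 (Slc36a3) to 0.914 (Slc6a16).

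Letters of 3 motifs were searched on both strands: TGATGNAAN and TTGCATCA, forms of the element bound by ATF4 with C/EBP partners, and the E-box CACGTG, which MYC and other factors can bind. The reverse complement of TTGCATCA also starts the letters of TGATGNAAN, so their matches overlap. TTGCATCA was in a window of 3 of 46 members, or 6.52%, beside 1.03% of the 27025 genes in the table. Among the 16469 protein-coding genes with a window the share was 1.05%. TGATGNAAN was in 4 (8.7%, beside 4.5% of all genes and 3.95% of protein-coding genes) and CACGTG in 9 (19.6%, beside 8.09% and 9.18%). A gene can have more than 1 window. Per window, CACGTG was in 13.4% of the 67 of members and 8.03% of the 20095 of protein-coding genes. Of the 9 members with CACGTG, Slc36a1, Slc38a7 and Slc43a1 are among the 23 expressed members and 6 are not. A match is only a match of letters, and these shares were not tested.

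For each of the 3 genes with TTGCATCA, 1 window is printed with those letters, on either strand, in capitals: the genes stand at very unlike levels. Slc1a4 (41.5 TPM, chr11:20332664-20332963, minus strand) and Slc7a7 (3.05 TPM, chr14:54417895-54418194, minus strand) have 1 match each, close to the start site, and Slc7a11 (0.609 TPM, chr3:50443564-50443863, minus strand) has 2 in opposite orientation. A second window of Slc7a7 (chr14:54417653-54417952) overlaps the printed one and is not printed. It holds the same site, near its upstream end, and no further match.
Slc1a4: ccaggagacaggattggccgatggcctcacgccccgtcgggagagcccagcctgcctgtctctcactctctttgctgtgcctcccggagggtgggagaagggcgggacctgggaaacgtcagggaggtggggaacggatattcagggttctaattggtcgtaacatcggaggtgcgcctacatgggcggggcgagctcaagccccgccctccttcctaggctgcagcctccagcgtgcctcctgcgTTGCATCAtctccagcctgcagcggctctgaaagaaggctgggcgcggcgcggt
Slc7a7: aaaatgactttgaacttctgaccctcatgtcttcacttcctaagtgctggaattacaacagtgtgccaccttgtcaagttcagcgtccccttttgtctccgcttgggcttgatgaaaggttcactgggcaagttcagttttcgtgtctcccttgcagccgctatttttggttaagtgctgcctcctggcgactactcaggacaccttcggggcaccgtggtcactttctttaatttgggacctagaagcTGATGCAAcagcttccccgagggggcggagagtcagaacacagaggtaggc
Slc7a11: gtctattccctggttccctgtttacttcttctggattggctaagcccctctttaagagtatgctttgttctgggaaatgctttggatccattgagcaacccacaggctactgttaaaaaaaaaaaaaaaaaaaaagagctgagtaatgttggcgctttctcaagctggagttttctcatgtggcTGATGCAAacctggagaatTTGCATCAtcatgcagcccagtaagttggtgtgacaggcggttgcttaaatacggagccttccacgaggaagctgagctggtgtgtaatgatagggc
Shared letters thus went with a range from 0.609 TPM (Slc7a11) to 41.5 TPM (Slc1a4) in these cells.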

How the data were processed

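RNA of 4 Th17 libraries was analysed as 1 group. The authors deposited raw gene counts of read pairs. Per the file headers, featureCounts (1.4.6-p4) summed them over GENCODE release 13 exons, with both mates aligned and the reverse-stranded setting (option 2). The options leave out pairs that map to many places or touch more than 1 gene, so near-identical genes can be undercounted. The headers call the aligned input star2 and state no aligner version; the labels give mm10. The labels name the assay total RNA-seq but link a protocol for poly(A) RNA.

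Symbols and gene types came from GENCODE release 21, matched for 50376 identifiers; the other 224 held 0.0104% of counts. TPM were computed from the counts and the Length column, which joins the exons of all isoforms. Pairs were compared by log2(TPM + 1) with an exact sign-flip test. Spread was tested with edgeR 4.0.16 (intercept only, TMM, filterByExpr, Benjamini-Hochberg over all genes), with DESeq2 1.42.0 as an alternative, after a check on simulated data. That check required recovery only of changes larger than the range of any tested member (at most 1.87-fold). It does not show that smaller changes would be called. Counting intervals are at 95%. The members, lists and pairs were chosen with earlier results of these data known, and Slc6a21 was added to its list, and CpG content, the heavy to light chain ratio and the transcript-length alternative were chosen, after the files were seen. Members with a mean of at least 10 TPM are given library by library, those from 1 to 10 TPM by mean and SD or by library, pair members and most of those at 0 counts by name (the others are counted but not named here); other lists by their 5 highest members and those under 1 TPM. Protein sequences were not used here, so the planned identity between members was not computed.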

Additional observations from a re-analysis of the deposited data

Results flagged for a closer look

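Of 36 values checked in the 4 libraries (23 members with a mean of at least 1 TPM, 12 pairs and the heavy to light chain ratio), 7 had 1 library set apart from the other 3 by more than Dixon's critical value, where chance flags about 1 in 20 groups. The 36 share genes and are not independent. Slc3a2 was low in replicate 1, at 199 TPM against 212 to 213 TPM. Slc43a3 was high in replicate 3, at 113 TPM against 102 to 103 TPM. Slc7a6 was low in replicate 4, at 72.3 TPM. None of these genes had an unadjusted p under 0.05 in the edgeR test of spread. Slc3a2 had 0.495 times the trended dispersion, Slc43a3 1.08 times and Slc7a6 2.34 times.

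The other 4 all had replicate 4 apart. They were the difference of Slc3a2 and Slc7a5 (-0.53 log2 units), that of Slc1a5 and Slc1a4 (2.91), that of Slc7a1 and Slc7a2 (6.57) and the ratio of Slc3a2 to its 6 light chains (0.555). Slc7a5, which enters the first and the last, had 306 TPM in replicate 4 against 342 to 371 TPM, and Slc7a6, another of the 6 light chains, had 72.3 against 82.5 to 84.5 TPM. Slc7a2 held only 2, 0, 2 and 1 counts in replicates 1 to 4, so its difference from Slc7a1 rests on a gene near 0 counts. The level of Slc7a1 alone was not flagged.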

How the results depend on the processing

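No paired analysis was possible because the 4 libraries form 1 group. The number of members with at least 1 TPM in every library was 23 in each setting that left out 1 library, and 18 to 24 over the thresholds of 0.5 and 5 TPM, a minimum of 10 counts and the other scalings. The number of members called variable was 0 under every alternative run, which included no filter and a mean count of at least 50. Over all genes tested only 0.00802% to 0.592% were called, so 0 members does not set them apart from other genes. All pairs kept their direction under the alternatives but Slc38a1 minus Slc38a2, which was 0.63 without division by length and -0.01 with the longest coding transcript, where the exact sign-flip test gave p = 0.75. Slc36a1 minus Slc38a9 came to 0.01 without division by length. Differences from low genes grew when 0.1 in place of 1 was added to the TPM. Slc7a1 minus Slc7a2 was then 9.67 in place of 6.64, and Slc7a5 minus Slc7a8 was 10.8 in place of 8.3. The ratio of Slc3a2 to its light chains was 0.561 with the longest coding transcript, and 0.464 to 0.495 with 1 library left out. With no filter on low counts the median shift of members was 0.000511 in replicate 1 (in place of 0.02), -0.0181 in replicate 3 (0.04) and -0.0324 in replicate 4 (-0.07); that of replicate 1 was -0.0292 without replicate 4. Lengths moved single levels, most for Slc7a6os (91.7 in place of 37.3 TPM). The cause of these changes was not tested beyond the lengths themselves. Low members are limited by depth, most in replicate 3.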
